A study of Mus musculus with 8 samples.

Results

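Ido1 and 9 other genes of the tryptophan and kynurenine pathway were followed in tumor endothelial cells of B16-F10 melanoma after agonistic CD40 mAb treatment. The 10 genes, Ido1, Ido2, Tdo2, Afmid, Kmo, Kynu, Haao, Wars, Slc7a5 and Ahr, were chosen by name for their place in the pathway and are 10 of the 20057 genes measured. B16-F10 cells, a mouse melanoma line, were placed under the skin of 8-week-old male C57BL/6 mice (250000 cells per mouse). The treated group received 30 µg of agonistic CD40 mAb (clone FGK4.5) and the isotype control group 30 µg of rat IgG2a (clone 2A3), in both cases as 2 injections around the tumor on days 13 and 16. According to the labels, tumors were taken 1 day after the second injection. About 100000 live CD45-CD31+ cells per tumor were sorted, which selects for the endothelial protein CD31 and against the leukocyte protein CD45, and 10 ng of RNA went into each library. Each of the 8 libraries, 4 per group, was labelled with its own mouse, and the libraries are called by these mouse labels. The comparison asks which steps of tryptophan use differ in tumor endothelial cells when CD40 is activated in the animal.

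Tryptophan enters cells through large neutral amino acid transporters and is used for protein synthesis, for serotonin or for the kynurenine pathway. IDO1, IDO2 and TDO2 open the indole ring of tryptophan, and later enzymes convert kynurenine towards NAD or smaller products. IDO1 is known as an enzyme induced by IFNγ, and both the loss of tryptophan and the gain of kynurenine, a ligand of the aryl hydrocarbon receptor, are known to restrain T-cells.

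The deposited values are normalized reads, that is gene counts divided by a size factor for each library. They came from 12512772 to 64938728 reads on genes per agonistic CD40 mAb library and from 2971689 to 35583141 per isotype control library. One read was worth 0.118 normalized reads in the deepest library (5N) and 2.44 in the shallowest (5L). Low transcripts are resolved more coarsely in the isotype control libraries 5L, 7N and 8N than in any treated library. In the control library 9L a read was worth 0.217, less than in 6L (0.377), 10N (0.581) and 6R (0.602). The isotype control libraries 5L and 7N, the shallowest of the 8, also stood apart from the other 6 on the first principal component, at 68.5 and -43.4, with the others between -16.8 and 4.65. Values of the pathway genes and called genes that rest on them are given with and without them. The sorted cells carried endothelial markers in all libraries, with Cdh5, the endothelial cadherin, at 11917 and 11125 and Pecam1, which encodes CD31, at 10760 and 9071 mean normalized reads in treated and control libraries. Transcripts of other tumor cells were abundant as well. The summed level of 10 melanoma markers was between 37595 and 98998 normalized reads and that of 10 fibroblast markers between 103206 and 277036, against 49047 to 80368 for 14 endothelial markers. Each value below belongs to the sorted cells as a whole.

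A gene was tested with limma when its larger group mean was above 10 normalized reads, which held for 12969 genes and for 5 of the 10 pathway genes (Ido1, Afmid, Wars, Slc7a5 and Ahr). It was called when the group means differed at least 1.5-fold with an unadjusted p of at most 0.05, the threshold of the study's methods. Of the 5 pathway genes tested, 1 was called higher with agonistic CD40 mAb, Ido1, and 0 were called lower. Among all genes tested, 166 (1.28%) were called higher and 31 (0.239%) lower, and 2 (0.0154%) had a limma p under 0.05 after Benjamini-Hochberg adjustment, Ido1 not among them. The median log2 fold change was 0.30 over the 5 pathway genes (0.14 without 6L) and 0.00 over all genes tested. Each library came from its own mouse, and p-values measure the spread between these 8 tumors.

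**Figure D1:**
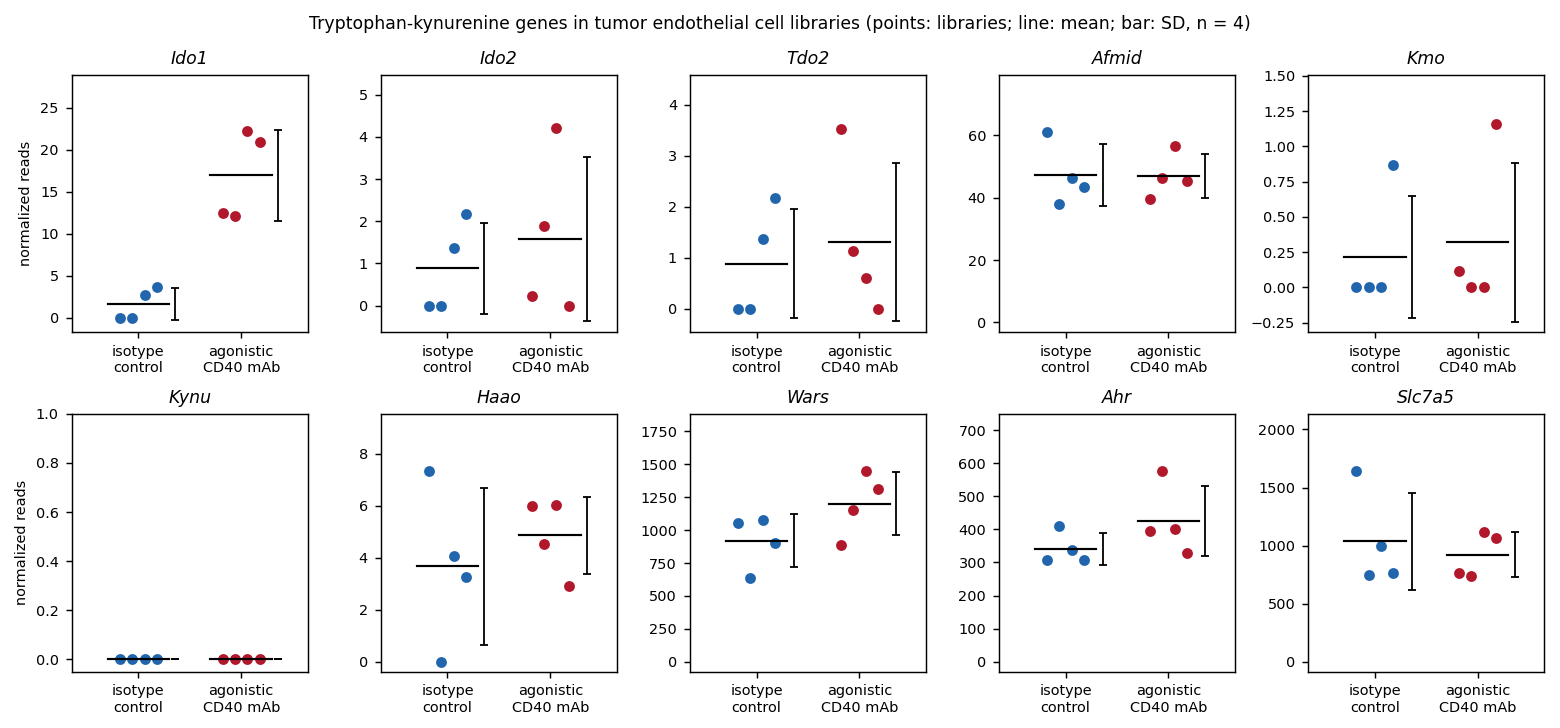
Normalized reads of the 10 pathway genes in each library (vertical axes, all including 0 and scaled per gene) for isotype control (blue) and agonistic CD40 mAb (red); each point is a library, the line the mean and the bar beside it 1 SD (n = 4), which reaches below 0 for genes with few reads. Ido1 is the gene whose groups are separated, Kynu has no reads, and the groups overlap for the other 8 genes.

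Ido1, the IFNγ-induced dioxygenase that catalyzes the first step of the pathway, lies on the minus strand at chr8:24584136-24597009 (mm10), with 11 exon blocks. It held 12.5, 12.1, 22.3 and 20.9 normalized reads in the agonistic CD40 mAb libraries 5N, 6L, 6R and 10N. In the isotype control libraries 5L, 7N, 8N and 9L it held 0, 0, 2.72 and 3.68. All treated libraries lay above all control libraries, and the lowest treated library was 3.28-fold above the highest control library. Groups that do not overlap were found in this direction for 1.09%, in the other for 0.486% and in either for 1.57% of all genes tested. The treated mean was 16.9 ± 5.40 and the control mean 1.60 ± 1.89 (SD, n = 4 each), a ratio of 10.6. The log2 fold change, on log2(normalized reads + 1), was 3.08 with a standard error of 0.68 and a 95% interval of 1.59 to 4.57. The unadjusted limma p was 8.64e-04, which ranked Ido1 34th among all genes, and the adjusted p was 0.329. The two-sided exact permutation test of the means gave p = 0.0286, the smallest that 70 assignments of 4 against 4 libraries allow. In these bulk libraries, a change in the number of cells that express Ido1 and a change in the amount of its RNA per cell cannot be told apart.

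The difference in Ido1 rests on few reads. The treated libraries held 106, 32, 37 and 36 reads of Ido1 and the control libraries 0, 0, 2 and 17, so that 211 reads stand against 19. The 95% Poisson intervals, which cover counting error only, ran from 10.2 to 15.1 normalized reads in 5N, from 8.26 to 17.0 in 6L, from 15.7 to 30.7 in 6R and from 14.6 to 28.9 in 10N. They ran from 0.330 to 9.83 in 8N and from 2.15 to 5.90 in 9L. The interval of 8N overlapped that of 6L, as did intervals of the same kind for 5L and 7N, while the interval of 9L, the deepest control library, lay below those of all treated libraries. For the libraries without a read, 3 reads would be 7.33 normalized reads in 5L and 7.14 in 7N. At the depth of 5L, the Ido1 levels of the treated libraries would give 4.94 to 9.11 reads, and the 2 control libraries with Ido1 reads 1.11 and 1.51. Absence of Ido1 from 5L and 7N therefore cannot be separated from a level like that of 8N or 9L at this depth. With 5L and 7N set to their limits of 3 reads, the control mean was 5.22 and the ratio 3.24. Without 5L and 7N the control mean was 3.20, the ratio 5.29 and the log2 fold change 2.05, and the call held. The ratio lay between 7.93 (without 5L or without 7N) and 18.7 (without 9L) when 1 library was left out, and Ido1 passed the threshold in each of these 8 fits.

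**Figure D2:**
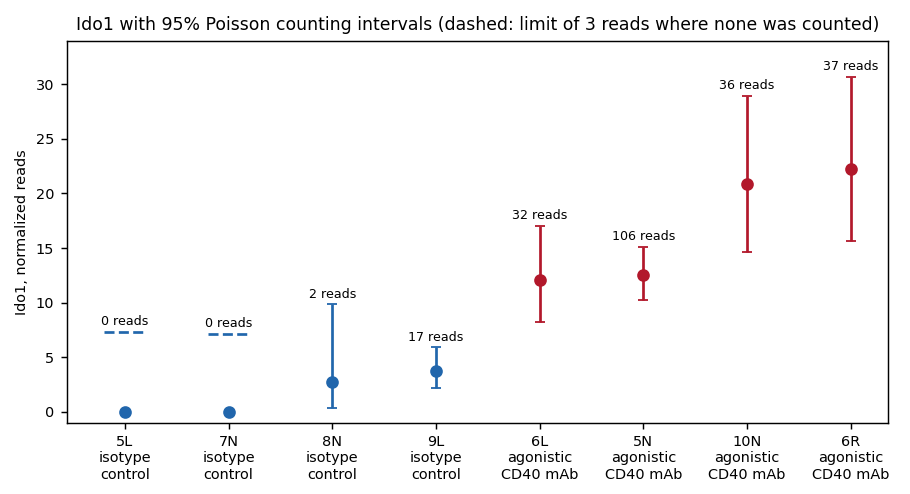
Ido1 in each library in normalized reads (vertical axis) with 95% Poisson counting intervals, the number of reads written above each point and, for the 2 libraries without a read, the level that 3 reads would give as a dashed line; libraries are ordered by level within isotype control (blue) and agonistic CD40 mAb (red). The treated libraries lie between 12.1 and 22.3, above the highest control library at 3.68.

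The count models on the recovered reads gave similar sizes. The log2 fold change of Ido1 was 2.66 in edgeR's quasi-likelihood test (unadjusted p = 8.51e-04, adjusted p = 0.245) and 2.81 in DESeq2 (adjusted p = 0.0393). These tools called 150 (1.16%) and 161 (1.24%) of the genes higher, and 3 (0.0231%) and 64 (0.493%) had an adjusted p under 0.05. Over all settings the adjusted p of Ido1 ranged from 0.0393 in DESeq2 to 1.00. The size on the log scale depended on the pseudocount, as the control values are near 0, with 4.84 for a pseudocount of 0.1 and 1.21 for a pseudocount of 10. No 50-base window of Ido1 transcripts occurred in transcripts of another gene, and no annotated exon of another gene overlapped its exons.

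Since dendritic cells, macrophages and other leukocytes can also express Ido1, their markers are given beside it. Of 16 leukocyte, T-cell, NK-cell and B-cell markers, 1 (Lck) was abundant enough to be tested and was not called. The summed level was 46.6 to 86.0 normalized reads in treated and 33.3 to 70.2 in control libraries. Most of it was Lck, at 45.9 of a mean sum of 67.7 in treated and 37.4 of 48.8 in control libraries. The sum therefore mainly follows Lck. Of the T-cell markers, Cd3d had no read, Cd8a, Cd3e and Cd8b1 had 14, 8 and 2 reads in treated and 0 in control libraries, and Cd3g had 0 and 1. Cd4 had 8 and 17 reads and Cd2 17 and 24. Of the NK-cell and cytotoxic markers, Gzmb, Ncr1 and Nkg7 had 6, 2 and 1 reads in treated and 0 in control libraries, and Klrb1c 39 and 13. Ptprc, which encodes CD45, the protein the sort selected against, held 5.77, 1.51, 21.1 and 11.6 normalized reads in 5N, 6L, 6R and 10N and 0, 2.38, 2.72 and 4.98 in 5L, 7N, 8N and 9L. The groups overlapped for Ptprc (108 against 26 reads, exact permutation test, p = 0.171), but without 6L Ptprc reached the limit for testing and was called higher (ratio 5.08). Ptprc was tested in 4 settings and called in 1 of them. Without 5N it was tested and not called (ratio 4.52). The libraries highest in Ptprc, 6R and 10N, were also the highest in Ido1, and 5L was at 0 for both, while 6L, with 32 reads of Ido1, held 4 of Ptprc.

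The 12 dendritic cell markers summed to 2414 to 3388 normalized reads in treated and 2177 to 3196 in control libraries. Most of it was Fscn1, at 2461 of a mean sum of 2868 in treated and 2300 of 2678 in control libraries. Zbtb46 was at 216 against 212. The sum therefore mainly follows Fscn1. The 4 of these markers that were tested were not called, and 1 of them, Clec9a, was called higher without 7N (ratio 1.53). Siglech and Cd209a had no read, and Flt3 had 4 reads in treated and 0 in control libraries. Xcr1 was at 0.528 and 4.41 mean normalized reads in treated and control libraries and Itgax at 2.07 and 1.06. Clec10a had 20 and 44 reads and was called lower when genes of every level were tested (ratio 0.299). The 13 macrophage and monocyte markers summed to 380 to 614 normalized reads in treated and 248 to 571 in control libraries, with Lyz2 at 189 against 123 and Cd68 at 70.7 against 72.3. Of the 11 tested, 1 was called, Mrc1, the mannose receptor, at 39.0 ± 2.94 against 22.4 ± 7.46 (SD, n = 4 each), a ratio of 1.74 with a limma adjusted p = 1.00. The median log2 fold change of these 11 genes was 0.54, and it was 0.07 without 8N and 0.77 without 9L. Mrc1 also lost the call without 8N (ratio 1.54). Other macrophage markers were called higher with 1 library left out, Lyz2 without 5N, 7N or 9L, Itgam without 7N or 9L and C1qb without 9L. The ratio was below 1 for Csf1r (0.925), Adgre1 (0.934), Cd68 (0.978) and C1qc (0.907), with no call in any of these fits. The untested Ly6c2 was at 4.22 and 5.43 mean normalized reads in treated and control libraries and Cd163 at 0.298 and 2.81. The part of these cells in the level of Ido1 was not tested.

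Ido2, the neighboring gene, and Tdo2, the dioxygenase known mainly from the liver, catalyze the same reaction as Ido1. Ido2 lies on the same strand at chr8:24531892-24576333, 7802 bases from Ido1. It held 0.236, 1.89, 4.21 and 0 normalized reads in 5N, 6L, 6R and 10N and 0, 0, 1.36 and 2.17 in 5L, 7N, 8N and 9L. That is 14 against 11 reads, the groups overlapped, and the exact permutation test gave p = 0.629. Tdo2 (chr3:81957090-81976202, minus strand) held 3.53, 1.13, 0.602 and 0 normalized reads in treated and 0, 0, 1.36 and 2.17 in control libraries, in the same order. Of its 34 reads with agonistic CD40 mAb, 30 came from 5N, the deepest library, against 11 reads with isotype control (exact permutation test, p = 0.714). Neither gene reached the mean of 10 normalized reads, and at these read numbers a difference between groups was not detectable.

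Per length, in normalized reads per kilobase of annotated exons, Ido1 was the most abundant of the 3 dioxygenases in treated cells, at 9.28 ± 2.96 against 0.435 for Ido2 and 0.339 for Tdo2. In isotype control libraries these levels were 0.878 ± 1.04, 0.243 and 0.227, and the distance of Ido1 from the other dioxygenases was smaller than its SD. This SD includes the shallowest control libraries, in which none of the 3 dioxygenases had a read. In the control libraries with Ido1 reads, Ido1 was at 1.49 and 2.02. It lay above Ido2 (0.374 and 0.596) and Tdo2 (0.351 and 0.558) in each of them.

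Afmid encodes the formamidase that turns N-formylkynurenine, the product of the dioxygenases, into kynurenine (chr11:117825924-117839908, plus strand). It held 39.6, 46.4, 56.6 and 45.3 normalized reads in 5N, 6L, 6R and 10N and 61.1, 38.1, 46.3 and 43.3 in 5L, 7N, 8N and 9L. The 2 groups covered nearly the same range. The means were 47.0 ± 7.06 and 47.2 ± 9.87 (SD, n = 4 each), and the log2 fold change was 0.00 with a 95% interval of -0.52 to 0.53 (exact permutation test, p = 1.00). Its transcripts share 41.3% of their 50-base windows with Gm20708, which is annotated on the same strand and is not among the genes of the table. Its exons also overlap Tk1 on the opposite strand. The library kit does not keep strand, so reads of Afmid may include some of these genes and its level is uncertain.

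Transcripts of Kmo, Kynu and Haao, which act past kynurenine, were scarce or not detected. Kmo, the kynurenine 3-monooxygenase (chr1:175620381-175662116, plus strand), had 3 reads in treated and 4 in control libraries. The reads of Kmo came from 5N and 10N among treated libraries and from 9L alone among control libraries. Kynu, the kynureninase (chr2:43555329-43682715, plus strand), had 0 of 159706716 reads on genes in the 8 libraries together, which allows up to 3 reads in the same total. Haao, which oxidizes 3-hydroxyanthranilate on the way to NAD (chr17:83831156-83847963, minus strand), held 6.01, 4.53, 6.02 and 2.90 normalized reads in 5N, 6L, 6R and 10N and 7.33, 0, 4.08 and 3.25 in 5L, 7N, 8N and 9L. The highest and the lowest value of Haao were both in control libraries, on 3 reads and 0 reads. Its means were 4.86 ± 1.48 and 3.67 ± 3.01 (SD, n = 4 each), on 78 and 21 reads (exact permutation test, p = 0.543). With no limit on the mean, limma called none of Ido2, Tdo2, Kmo and Haao.

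Wars, the cytosolic tryptophanyl-tRNA synthetase, charges tRNA with tryptophan and is also known as an IFNγ-induced gene (chr12:108860030-108894174, minus strand). It held 891, 1152, 1449 and 1315 normalized reads in 5N, 6L, 6R and 10N and 1056, 640, 1079 and 905 in 5L, 7N, 8N and 9L. Libraries 6L, 6R and 10N lay above all control libraries, while 5N lay below 3 of them. The means were 1201 ± 240 and 920 ± 202 (SD, n = 4 each), a ratio of 1.31, and the log2 fold change was 0.39 with a standard error of 0.20 and a 95% interval of -0.04 to 0.82. Wars was not called (limma p = 0.0719, adjusted p = 1.00), and the exact permutation test gave p = 0.143. The log2 fold change was lowest without 7N, at 0.23, and highest without 5N, at 0.53 with a ratio of 1.42. Its unadjusted limma p was 0.0209 without 5N, 0.0379 without 5L and 0.0496 without 8N, with ratios under 1.5 in each of these fits. Without 5L and 7N together the ratio was 1.21.

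Wars was also set against the 19 other cytosolic aminoacyl-tRNA synthetases of the list, all of which were tested and none called. Their log2 fold changes ran from -0.14 to 0.12 with a median of -0.02, so that the 0.39 of Wars lay above the whole range. The most abundant of them were Eprs, at 2390 and 2549 mean normalized reads in treated and control libraries, and Gars, at 2302 and 2411. The log2 level of Wars minus the mean log2 level of the others was -0.09, 0.35, 0.43 and 0.41 in 5N, 6L, 6R and 10N and -0.01, -0.53, 0.11 and -0.07 in 5L, 7N, 8N and 9L. As for Wars itself, 3 treated libraries lay above all control libraries and 5N did not. The groups differed by 0.40 on this scale (two-sided exact permutation test, p = 0.114, or 0.229 after Benjamini-Hochberg adjustment over 2 such relative levels). The difference was 0.26 without 5L and 7N and 0.52 without 5N. This comparison was chosen after the values had been seen.

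Slc7a5, the light chain of the transporter LAT1, carries tryptophan and other large neutral amino acids into the cell and kynurenine as well (chr8:121881150-121907694, minus strand). It held 768, 742, 1113 and 1063 normalized reads in 5N, 6L, 6R and 10N and 1642, 749, 995 and 764 in 5L, 7N, 8N and 9L. Library 5L had the highest level of the 8, and the other 3 control libraries lay within the range of the treated ones. The means were 922 ± 194 and 1038 ± 418 (SD, n = 4 each), a ratio of 0.888, and the log2 fold change was -0.12 with a 95% interval of -0.66 to 0.43 (exact permutation test, p = 0.800). Without 5L the log2 fold change was 0.13 and without 5L and 7N 0.06, so its sign depended on 5L. The summed level of melanoma markers was also highest in 5L, at 98998 against 37595 to 64296 in the other 7 libraries, and the part of melanoma cells in the level of Slc7a5 was not tested. The log2 level of Slc7a5 minus that of Slc3a2, the heavy chain of the same transporter, differed by -0.04 between groups (exact permutation test, p = 0.800, and 0.800 adjusted over the same 2 relative levels).

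Ahr encodes the aryl hydrocarbon receptor, the ligand-activated transcription factor that binds kynurenine (chr12:35497974-35535038, minus strand). It held 395, 576, 400 and 329 normalized reads in 5N, 6L, 6R and 10N and 308, 412, 338 and 308 in 5L, 7N, 8N and 9L. Library 6L was the highest, and the remaining treated libraries lay inside the range of the control libraries. The means were 425 ± 106 and 341 ± 49.0 (SD, n = 4 each), a ratio of 1.25. The log2 fold change was 0.30 with a standard error of 0.18 and a 95% interval of -0.10 to 0.69 (limma p = 0.128, adjusted p = 1.00, exact permutation test, p = 0.200). It was 0.14 without 6L and 0.41 without 10N.

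The order of the pathway genes per length was much alike in both groups. In normalized reads per kilobase of annotated exons, Wars was at 349 ± 69.7 in treated and 267 ± 58.6 in control libraries, and Slc7a5 at 249 ± 52.2 and 280 ± 113 (SD, n = 4 each). The order of Wars and Slc7a5 changed between groups, and their SDs overlapped in both groups. Ahr followed at 69.0 ± 17.2 and 55.4 ± 7.95. Afmid was at 13.3 ± 2.00 and 13.3 ± 2.79, Ido1 at 9.28 ± 2.96 and 0.878 ± 1.04, and Haao at 1.04 ± 0.317 and 0.783 ± 0.644. The SDs of Ido1 and Afmid overlapped in treated libraries, and those of Ido1 and Haao in control libraries. In the control libraries with Ido1 reads, Ido1 was at 1.49 and 2.02 and Haao at 0.872 and 0.694, in the same order. In the control libraries without Ido1 reads, the shallowest, Haao was at 1.57 and 0. With the longest transcript as the length, Afmid (20.2 ± 3.04) and Ido1 (10.2 ± 3.26) were apart in treated libraries. Kmo was at 0.0677 and 0.0459, below Ido2 and Tdo2, and Kynu at 0.

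The lists of related genes are described by their counts, with no test of a list. Of 22 other enzymes of tryptophan and kynurenine use, 16 were tested and none was called in either direction, with a median log2 fold change of -0.09. The most abundant were Got2, the mitochondrial aspartate aminotransferase that also transaminates kynurenine, at 1106 and 1276 normalized reads in treated and control libraries, and Acat1, at 851 and 957. Of 11 amino acid transporters, those of tryptophan and other large neutral amino acids and a few of other amino acids, 10 were tested and none was called (median -0.03). Slc38a2, a transporter of small neutral amino acids, was at 4330 and 4249, and Slc3a2 at 1399 and 1468.

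Partners and targets of AHR and genes of the amino acid shortage response gave counts of 0 as well. Of 18 AHR genes, 13 were tested and none was called (median -0.01). Hsp90ab1 and Hsp90aa1, chaperones that hold AHR in the cytosol, were at 18143 and 18306 and at 7367 and 8255 normalized reads in treated and control libraries. Cyp1b1 and Tiparp, targets named after their values had been seen, were at 917 and 807 and at 565 and 680. The control libraries of Cyp1b1 ranged from 235 in 5L to 1661 in 7N, and without 7N it was called higher (ratio 1.75). Its ratio was 0.918 without 5L and 0.994 without 9L, with no call. Of the other named targets, Cyp1a1 had 4 and 1 reads and Cyp1a2 none. The 18 genes of the response to amino acid shortage, which GCN2 and ATF4 control, were all tested and none was called (median -0.03). Atf4 was at 1881 and 1980 (log2 fold change -0.07) and Cebpg, a partner of ATF4, at 890 and 986 (log2 fold change -0.14). Among these 4 lists and the synthetases, 0 genes had an unadjusted limma p under 0.05, which 261 (2.01%) of all genes tested had, and the edgeR and DESeq2 fits called none of them. When 1 library was left out, 3 of these genes were called higher in 1 fit each, Ccbl2 and Tph2 without 5L and Cyp1b1 without 7N.

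**Figure D3:**
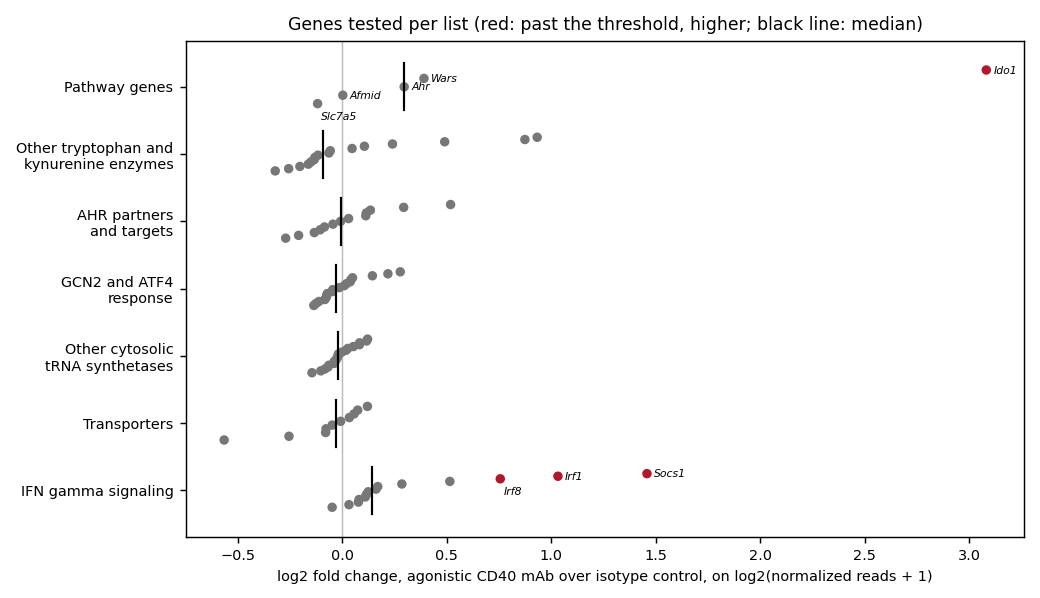
Log2 fold changes of agonistic CD40 mAb over isotype control, on log2(normalized reads + 1) (horizontal axis), for the tested genes of each list (rows); each point is a gene, red points passed the threshold and black lines are medians. Ido1 at 3.08 and 3 genes of IFNγ signaling are the red points, and the medians of the other lists of related genes lie between -0.09 and -0.01.

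Genes of IFNγ signaling upstream of Ido1 included further calls. Of 15 such genes described here, 14 were tested, 3 were called higher (Irf1, Irf8 and Socs1) and none lower. The median log2 fold change was 0.14, and 0.03 without 5L. Irf1, an IFNγ-induced transcription factor that binds the Ido1 promoter, held 784, 941, 1082 and 1330 normalized reads in 5N, 6L, 6R and 10N and 305, 454, 709 and 613 in 5L, 7N, 8N and 9L. All treated libraries lay above all control libraries, at 1034 ± 232 and 521 ± 178 (SD, n = 4 each), a ratio of 1.99 and a log2 fold change of 1.03 (limma, adjusted p = 0.460). Irf8, a related factor, was at 562 ± 131 and 331 ± 69.1 (SD, n = 4 each), with no overlap, a ratio of 1.70 and a limma adjusted p = 0.599. Socs1, an inhibitor of JAK signaling, was at 23.7 ± 15.0 and 8.35 ± 5.58 (SD, n = 4 each), a ratio of 2.84 with overlapping groups (limma, adjusted p = 1.00).

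These calls differed in how they held. Irf1 passed the threshold in all 21 settings, with adjusted p from 0.0218 to 1.00, and its ratio was 1.56 (log2 fold change 0.62) without 5L and 7N. Irf8 passed in 20 of 21, failing without 5L and 7N (ratio 1.44), and Socs1 in 14 of 20, failing without 6L, 6R, 10N, 5L or 7N and without 5L and 7N together. The ratio of Socs1 was 1.98 to 3.02 in the 5 fits with 1 library less that lost the call and 1.81 (log2 fold change 0.63) without 5L and 7N. Of the receptor and its kinases, Ifngr1 was at 854 and 800 normalized reads in treated and control libraries, Ifngr2 at 794 and 827, and Jak1 at 3252 and 3213 (log2 fold change 0.03). Stat3, a factor downstream of several cytokine receptors, was at 2128 and 2021 (log2 fold change 0.08). Ifng itself had no read in any library. Stat2 had a ratio of 1.39, below the fold limit (limma, adjusted p = 1.00), and was called without 9L (ratio 1.52).

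Promoter sequence from RefSeq (GRCm38.p6) was available for 4 of the 10 pathway genes, Tdo2, Kmo, Haao and Afmid. The genes not in that table were Ido1, Ido2, Kynu, Wars, Ahr and Slc7a5. In the 250 bases before the start sites of the 4, neither strand held TTCNNNGAA (the GAS motif, an IFNγ-activated site), the ISRE motif of interferon regulatory factors or TGATGNAA (the CARE motif of ATF4). These start sites are those of RefSeq. The windows of Tdo2 (chr3:81975729-81975978), Kmo (chr1:175631943-175632192) and Haao (chr17:83846791-83847040) lie inside the gene ranges given above, not before them. Among 32851 promoters, 7.02% held the GAS motif, 2.98% ISRE and 3.45% CARE in a window of this length, with both strands searched. The core of the AHR element, GCGTG, which 28.2% held, occurred once each in the windows of Tdo2 and Haao. Irf1 is shown because it was called together with Ido1 and acts before it in the pathway. The 250 bases before its first start site, on the plus strand at chr11:53769764-53770013, hold 1 GAS motif, in capitals. The window before its other start site in the table, at chr11:53770223-53770472, holds 0. The match is a description of the sequence and not evidence of binding.
Irf1: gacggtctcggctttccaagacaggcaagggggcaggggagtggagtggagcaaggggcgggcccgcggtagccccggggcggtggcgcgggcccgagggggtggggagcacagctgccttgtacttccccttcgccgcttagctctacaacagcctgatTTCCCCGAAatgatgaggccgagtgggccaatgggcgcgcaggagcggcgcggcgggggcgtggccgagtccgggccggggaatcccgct

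The genes whose pattern over the 8 libraries was most like that of Ido1, by Pearson correlation of log2(normalized reads + 1) among 12968 other genes tested, were Cd274, Bst1, Igtp, Phf11b and Ubd. Cd274, which encodes PD-L1, had r = 0.99 and held 221, 263, 375 and 312 normalized reads in 5N, 6L, 6R and 10N and 46.4, 50.0, 139 and 106 in 5L, 7N, 8N and 9L. Like Ido1 it was lowest in 5L and 7N and highest in 6R and 10N. For Bst1, an ADP-ribosyl cyclase, r was 0.98 with means of 136 and 71.9 in treated and control libraries. For Igtp, an IFN-induced GTPase, r was 0.97 with means of 1032 and 283. For Phf11b r was 0.97, with 29.9 to 88.4 normalized reads in treated and 2.44 to 24.7 in control libraries. For Ubd, a ubiquitin-like protein, r was 0.96 with means of 412 and 17.5. The correlations are a description over 8 libraries that share the same 2 groups and the same depths, and they carry no p. Without 5L and 7N they were 0.95, 0.94, 0.99, 0.90 and 0.97 in the same order. Among the pathway genes, Wars had r = 0.68 with Ido1 (rank 529), Ahr 0.31, Afmid -0.01 and Slc7a5 -0.21, and without 5L and 7N these were 0.64, 0.37, 0.35 and 0.33, so the sign for Afmid and Slc7a5 depended on these libraries.

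**Figure D4:**
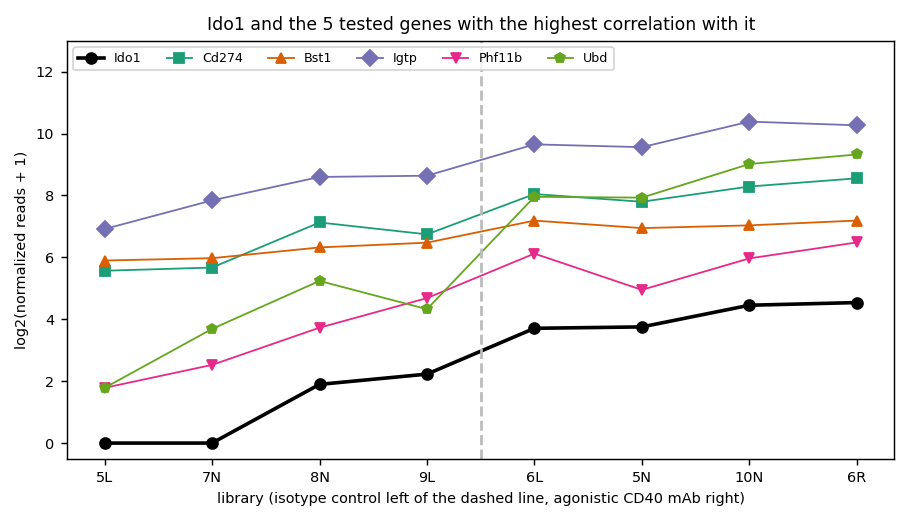
Levels of Ido1 (black) and of the 5 genes with the highest correlation with it, on log2(normalized reads + 1) (vertical axis), in the 8 libraries (horizontal axis), with isotype control left and agonistic CD40 mAb right of the dashed line; each point is a library and lines join the points of a gene. For Ido1 and the 5 genes, every treated library lies above every control library. The 5 genes were chosen for their likeness to Ido1, whose groups are separated, so their separation is not a further result.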

How the data were processed

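RNA of sorted cells from 8 B16-F10 tumors was sequenced from TruSeq RNA v2 libraries, a kit that does not mark strand. The signal values analyzed are normalized reads as deposited by the authors, who aligned reads to mm10 with TopHat2 and Bowtie2 (2.2.1), assigned them to genes in Partek (6.6) and divided gene counts by DESeq2 size factors. Their methods also name a correction for harvest day, flooring and trimming, none of which is visible in the values: 99.9% are whole multiples of 1 read (within 0.1 reads), from which reads were recovered. Which tumor was harvested on which day is not given in the sources used here. Every column of values was used. Totals of reads on genes ranged from 2971689 to 64938728. Without molecular identifiers, counting intervals and the limit of 3 reads cover counting error only.

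limma (3.58.1, R 4.3.3, trend moderation) was run on log2(value + 1) for 12969 genes, those in which the mean of 1 group or both exceeded 10, with Benjamini-Hochberg adjustment. Called genes had group means at least 1.5-fold apart and p no larger than 0.05 before adjustment. The group means of 1 gene were also compared by exact permutation, two-sided. The fits were tested on simulated data. Positions and exon lengths are from GENCODE M21 on mm10. The alternatives were pseudocounts of 0.1 and 10, all genes, a mean above 50, recomputed size factors, quantile normalization, limma without trend and with robust moderation, the fold limit on fitted values, edgeR (4.0.16) and DESeq2 (1.42.0) on recovered reads, longest transcripts for length, each library left out and, chosen after seeing the data, 5L and 7N left out.

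The pathway genes and the lists (other tryptophan and kynurenine enzymes, AHR partners and targets, the amino acid shortage response, synthetases, transporters, IFNγ signaling, and markers of endothelial, melanoma, fibroblast, mural, dendritic and other immune cells) were chosen with earlier results of these data known. Named are all pathway genes, the called genes and the 2 most abundant of each list, and the 5 genes most like Ido1, with a few more named after their values had been seen. From the lists, 1 gene is not reported here.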

Additional observations from a re-analysis of the deposited data

Results flagged for a closer look

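Of 18 groups of 4 libraries checked for a single library far from the rest (9 pathway genes with reads, each in both groups), 2 had one. Both concern Kmo. Library 10N was the highest of the agonistic CD40 mAb libraries at 1.1614 normalized reads, a gap of 0.8986 of the range, and 9L was the highest of the isotype control libraries at 0.8668, with the other 3 at 0. These values rest on 2 and 4 reads. The check flags about 1 in 20 groups by chance for continuous values, a rate that does not hold for such counts near 0. With the other 3 libraries at 0, any read in the remaining library gives a flag.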

How the results depend on the processing

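Ido1 kept its direction and its call in the 19 alternatives in which it was tested; with genes limited to a mean above 50 it was not tested and 0 pathway genes were called higher, against 1. Wars and Ahr kept their direction and stayed uncalled in 20 of 20 alternatives, Slc7a5 in 18 of 20 and Afmid in 14 of 19. Slc7a5 was reversed without 5L (0.13) and without 5L and 7N (0.0556). Afmid, at 0.00, was reversed with quantile normalization (-0.0342), in edgeR (-0.0050) and without 6R (-0.0889), 7N (-0.0912) or 9L (-0.0303). Per length of the longest transcript, Haao with agonistic CD40 mAb was at 1.56 and Afmid at 20.2 and 20.3 normalized reads per kilobase. Of the related genes, 1 rather than 3 (Irf1) was called higher without 5L and 7N, and 2 to 4 were when 1 library was left out, with 4 without 5L or without 9L. The genes called higher, 166, numbered 331 with all genes tested. The genes called lower, 31, numbered 93 with all genes, 13 with a mean above 50, 63 with quantile normalization, 57 without trend, 47 in edgeR, 58 in DESeq2, 56 without 5L and 7N, and 27 to 123 when 1 library was left out, with 123 without 5L and 52 without 9L. The cause was not tested, apart from the numbers of genes tested. No paired analysis was possible because the labels give no replicate numbers that pair the tumors of the 2 groups. Depth limits Ido2, Tdo2, Kmo, Kynu and Haao most, and Ido1 in 5L, 7N and 8N.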

Other observations

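Mural cell markers, genes of pericytes and smooth muscle, were also present in the sorted cells. Their 10 genes summed to 18661 to 32126 normalized reads with agonistic CD40 mAb and 14010 to 44558 with isotype control, and none of the 10 was called. The log2 fold change was below 0 for 9 of the 10, with a median of -0.21, and -0.53 without 5L. Without 5L, 3 of them were called lower, Rgs5 (ratio 0.653), Acta2 (0.596) and Tagln (0.582). In that fit the genes called lower over the whole set numbered 123, against 31 with all libraries. Without 5L and 7N the median was -0.40, and Acta2 (ratio 0.663) and Tagln (ratio 0.610) were called lower, among 56 genes called lower in all. The most abundant were Rgs5, at 9169 and 11891, and Acta2, at 4306 and 5928 mean normalized reads in treated and control libraries. The most abundant melanoma markers were Tyrp1, at 17048 and 21551, and Dct, at 15747 and 17082. The most abundant fibroblast markers were Col3a1, at 84377 and 77507, and Col1a1, at 50568 and 46170. None of the 10 melanoma and 10 fibroblast markers was called with all libraries, and Pdgfra, a fibroblast marker, was called higher without 7N (ratio 1.72).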
